A study of Homo sapiens with 10 samples.

Results

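The mRNAs of 38 genes were followed: the aminoacyl-tRNA synthetases of the cytosol (20 genes) and of mitochondria (16 genes), and AIMP1 and AIMP2, the scaffold proteins that hold several cytosolic synthetases together (2 genes). They were taken by symbol from a table of 23284 genes, and symbols ending in 2 were read as mitochondrial, with the exception of AIMP2, which is not a synthetase and was counted in neither compartment. All 38 were found, none was at 0 in any sample, and all 38 passed the filter for testing (0.5 FPKM or more on average), as did 12788 genes of the table. K562 cells, an established line from a human chronic myelogenous leukemia, were kept for 48 h in vehicle (DMSO) or in either of a pair of compounds, CBP30 and I-CBP112, each at 2 and at 5 µM. Both compounds occupy the acetyl-lysine pocket of the bromodomains of CREBBP and EP300, a pair of related lysine acetyltransferases that act as transcriptional coactivators. Polyadenylated RNA of 2 biological replicates per condition was sequenced, 10 samples in total. The deposited values are FPKM, that is fragments relative to transcript length and to library size, so levels of different genes could be compared per length.

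Aminoacyl-tRNA synthetases attach each amino acid to its tRNA, the step that supplies charged tRNA to ribosomes. Human cells have one set of enzymes for the cytosol and another, encoded by separate nuclear genes in most cases, for the small translation system of mitochondria, while GARS and KARS each encode the enzyme of both compartments. In the cytosol, 8 synthetases (DARS, EPRS, IARS, KARS, LARS, MARS, QARS and RARS) assemble with AIMP1, AIMP2 and EEF1E1 into the multisynthetase complex, and the others act outside it. Many cytosolic synthetase genes are known targets of ATF4, the transcription factor of the amino acid response, which binds C/EBP-ATF elements.

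The values carry no read counts, so no counting interval was derived. When the lowest values of 452 long genes found in few libraries were taken as single reads, the deepest library had 1.17 times the depth of the shallowest. The replicates of 2 µM CBP30 stood apart from each other, since their difference followed transcript length. The difference itself does not tell which of them deviated. Replicate 1 had the highest FPKM sum of all samples (689095, against 605892 in replicate 2). It also had the lowest median of tested genes (11.06 FPKM, against 11.55 in replicate 2 and 11.54 or more in the others). Whether the length trend lay in replicate 1 was not tested. Erythroid markers of K562 were present in every sample (HBG1 at 92.6 to 255 FPKM, HBG2 at 110.0 to 442, TFRC at 80.0 to 162, KLF1 at 8.40 to 68.8 and TAL1 at 16.9 to 24.2). Among markers of other cell types, MS4A1 was at 0 in all samples, COL1A1, ALB and CD3E did not exceed 3.31 FPKM, and CD3D (15.1 to 27.3) and EPCAM (31.8 to 59.7) were present. In bulk RNA, fewer cells that express a gene and less RNA per cell cannot be told apart.

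The letters of the C/EBP-ATF element core, TGATGNAA on either strand, stood in the promoter windows of 7 cytosolic synthetase genes, of 16 with a window. A window covered 250 bases before and 50 bases after an annotated gene start, was taken from RefSeq (GRCh38.p14) and was placed on GRCh37/hg19 by exact match, and 32 of the 38 members had at least 1. Among mitochondrial synthetases it was present for YARS2 alone, of 14 genes with a window, and in neither scaffold gene. Counted by window, these were 7 of 21 cytosolic windows (33.3%) and 1 of 18 mitochondrial ones (5.56%), while 3.62% of 35116 windows of all genes held it. The stretches around the 8 matches are given so that the letters near each gene start can be read beside its expression. Each is written 5′ to 3′ on the strand of its gene, with the match in capitals (it reads TTGCATCA or TTTCATCA where the motif lies on the opposite strand).
AARS, chr16:70323572-70323613, minus strand: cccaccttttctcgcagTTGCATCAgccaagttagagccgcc
CARS, chr11:3078631-3078672, minus strand: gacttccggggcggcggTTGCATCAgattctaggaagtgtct
GARS, chr7:30634444-30634485, plus strand: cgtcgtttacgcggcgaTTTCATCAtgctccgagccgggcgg
IARS, chr9:95055968-95056009, minus strand: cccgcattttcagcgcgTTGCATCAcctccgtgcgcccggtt
MARS, chr12:57881830-57881871, plus strand: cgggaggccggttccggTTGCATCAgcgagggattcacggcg
NARS, chr18:55289030-55289071, minus strand: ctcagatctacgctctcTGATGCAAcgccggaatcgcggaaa
TARS, chr5:33441056-33441097, plus strand: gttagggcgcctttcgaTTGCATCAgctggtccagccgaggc
YARS2, chr12:32909004-32909045, minus strand: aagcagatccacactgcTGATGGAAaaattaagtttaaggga
In CARS, IARS, MARS, NARS and TARS the match began between 13 bases before and 14 bases after the start of the window's gene, in GARS it lay 33 bases before it, and in AARS and YARS2 187 and 197 bases before it. The E-box CACGTG, the palindromic letters bound by MYC and related factors, was found in 7.26% of all windows. It was present for IARS among the cytosolic genes and for 3 mitochondrial genes (CARS2, EARS2 and MARS2), and for AIMP2 of the scaffold genes. Counted by window, 1 of 21 cytosolic (4.76%), 4 of 18 mitochondrial (22.2%) and 1 of 5 scaffold windows held it. MARS2 and FARS2 had the largest falls of the mitochondrial synthetases with 5 µM CBP30, described below (−0.53 each), and FARS2 had no E-box in its windows. The stretch of MARS2 is shown with its E-box in capitals.
MARS2, chr2:198570065-198570104, plus strand: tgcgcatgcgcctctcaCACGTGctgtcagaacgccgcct

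With DMSO, cytosolic synthetase mRNAs were far more abundant than mitochondrial ones. WARS, the tryptophanyl enzyme, was the highest at 388 ± 5.99 FPKM (SD, n = 2), followed by GARS at 336 ± 2.06 and SARS at 308 ± 1.18. The lowest cytosolic member was HARS, the histidyl enzyme, at 55.7 ± 3.67. Among mitochondrial members IARS2 stood alone at 102 ± 1.53, above 7 cytosolic synthetases, and the next was RARS2 at 28.7 ± 0.456. The lowest was WARS2 at 10.1 ± 0.954, near AARS2 at 10.7 ± 0.115, a difference smaller than the SD of WARS2. For each of 17 pairs of enzymes charging the same amino acid, the cytosolic mRNA was the higher one, from 1.97 times for IARS over IARS2 to 38.3 times for WARS over WARS2. EPRS was paired with both EARS2 and PARS2, and FARS2 with both FARSA and FARSB. The scaffold genes AIMP1 (41.4 ± 0.255) and AIMP2 (26.0 ± 1.09) lay below all cytosolic synthetases.

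Treatment with 5 µM CBP30 lowered nearly the whole cytosolic set. Of 20 cytosolic synthetases, 19 were downregulated and none was upregulated, with a median log2 fold change of −0.60 and a range from −0.94 to −0.11. Over all 12788 genes, 25.4% were called lower and 21.2% higher, with a median of −0.01. Calls here and below are those of limma on log2(FPKM + 1) with an adjusted p (Benjamini-Hochberg over all tested genes) under 0.05, and fold changes are on that scale. The member without a call was RARS, the arginyl enzyme of the multisynthetase complex, at 68.4 and 72.8 FPKM with DMSO and 66.1 and 64.4 with 5 µM CBP30 (log2 fold change −0.11, 95% interval −0.27 to 0.05).

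WARS, also the most abundant member, fell furthest. It measured 384 and 393 FPKM with DMSO and 207 and 197 with 5 µM CBP30, a log2 fold change of −0.94 (SE 0.0564, adjusted p = 3.09e-05). With 2 µM CBP30 it was at 298 and 312, so the samples of the 3 conditions did not overlap. FARSA, the catalytic subunit of the phenylalanyl enzyme, went from 88.3 and 87.0 with DMSO to 51.6 and 49.2 with 5 µM CBP30 (−0.79, SE 0.103, adjusted p = 0.000845). Its values at 2 µM, 82.5 and 65.1, were wide apart and lay between those of the other conditions. FARSB, the other subunit of the same enzyme, fell by 0.56 on the log2 scale at 5 µM.

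KARS, the lysyl enzyme, measured 160 and 166 FPKM with DMSO, 124 and 123 with 2 µM CBP30 and 93.5 and 96.4 with 5 µM (−0.78 at 5 µM, SE 0.0623, adjusted p = 0.000103). VARS, the valyl enzyme, measured 78.0 and 75.8, then 57.7 and 52.2, then 45.3 and 44.5 (−0.76, SE 0.0562, adjusted p = 6.95e-05). For both genes each step was larger than the distance between replicates. IARS, the isoleucyl enzyme, measured 197 and 203 with DMSO, 147 and 174 at 2 µM and 119 and 120 at 5 µM (−0.74, SE 0.0769, adjusted p = 0.000316). Its 2 µM samples were apart by more than the DMSO or the 5 µM samples were. The remaining called cytosolic members fell by 0.28 (TARS) to 0.70 (CARS). Coding exons of other genes overlap 12 members on the opposite strand, such as TERF2IP for KARS and DDIT3 for MARS, and 4 members on the same strand, and the sources used here do not state whether the counting used strand.

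**Figure D1:**
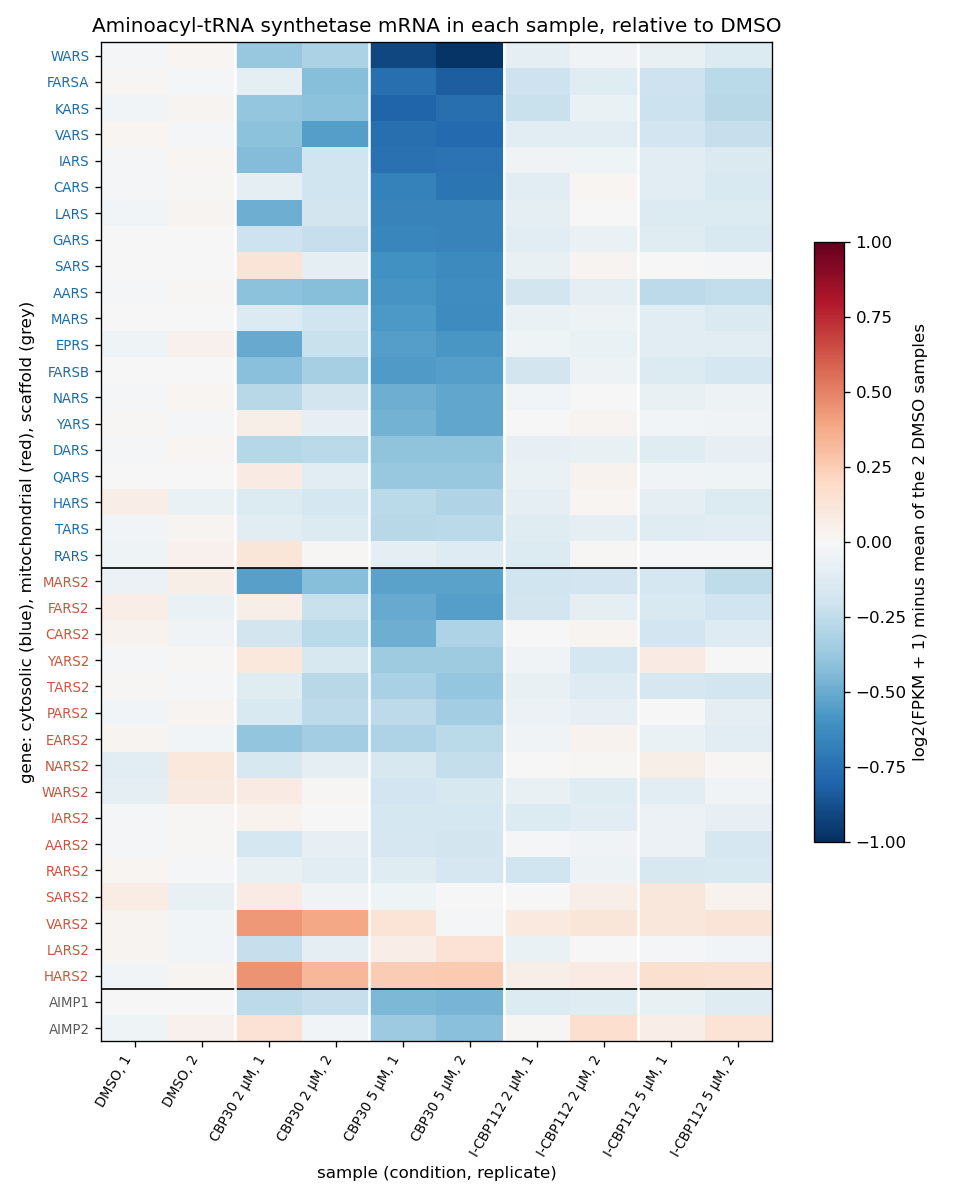
Each row is a gene and each column a sample, and color gives log2(FPKM + 1) minus the mean of the 2 DMSO samples, from −1 (blue) to 1 (red). Rows are ordered within each compartment by the change with 5 µM CBP30, where 19 of 20 cytosolic rows were called lower and the mitochondrial rows ran from −0.53 for MARS2 to 0.26 for HARS2.

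Among mitochondrial synthetases, 5 µM CBP30 gave calls in both directions, beside 25.4% of all genes lower and 21.2% higher. Of 16 genes, 9 were downregulated (AARS2, CARS2, EARS2, FARS2, IARS2, MARS2, PARS2, TARS2 and YARS2), 1 was upregulated (HARS2), and the median log2 fold change was −0.19. With replicate 2 of 5 µM CBP30 left out, 5 genes were lower in place of 9. MARS2, the methionyl enzyme, measured 11.6 and 12.7 FPKM with DMSO, 7.97 and 8.77 with 2 µM CBP30 and 8.03 and 8.06 with 5 µM (−0.53 at 5 µM, SE 0.0668, adjusted p = 0.00069). It was already at its lower level at 2 µM, and the treated samples at both concentrations lay together. FARS2, the phenylalanyl enzyme, measured 12.9 and 11.6 with DMSO and 8.29 and 8.03 with 5 µM (−0.53, SE 0.098, adjusted p = 0.0041), with 12.7 and 10.3 at 2 µM, where the range included the lower DMSO value.

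CARS2, the cysteinyl enzyme, measured 17.7 and 16.9 FPKM with DMSO, 15.1 and 14.2 at 2 µM and 12.0 and 13.7 at 5 µM CBP30 (−0.40, SE 0.0704, adjusted p = 0.00324). YARS2, the tyrosyl enzyme, measured 19.9 and 20.3 with DMSO and 15.5 and 15.5 at 5 µM (−0.36, SE 0.0911, adjusted p = 0.0159). TARS2, the threonyl enzyme, measured 27.3 and 27.0 with DMSO and 21.5 and 20.6 at 5 µM (−0.35, SE 0.0607, adjusted p = 0.00287). In these 3 genes the samples of 5 µM CBP30 lay below both DMSO samples. IARS2, the most abundant mitochondrial member, measured 101 and 103 with DMSO, 104 and 102 at 2 µM and 90.0 and 89.7 at 5 µM (−0.18, SE 0.0421, adjusted p = 0.0122). WARS2, the least abundant, measured 9.46 and 10.8 with DMSO and 8.75 and 8.92 at 5 µM, and did not pass the test (−0.18, 95% interval −0.34 to −0.01, adjusted p = 0.0742). NARS2 (−0.20), RARS2 (−0.15), SARS2 (−0.02), VARS2 (0.06) and LARS2 (0.11) were the others without a call at 5 µM.

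**Figure D2:**
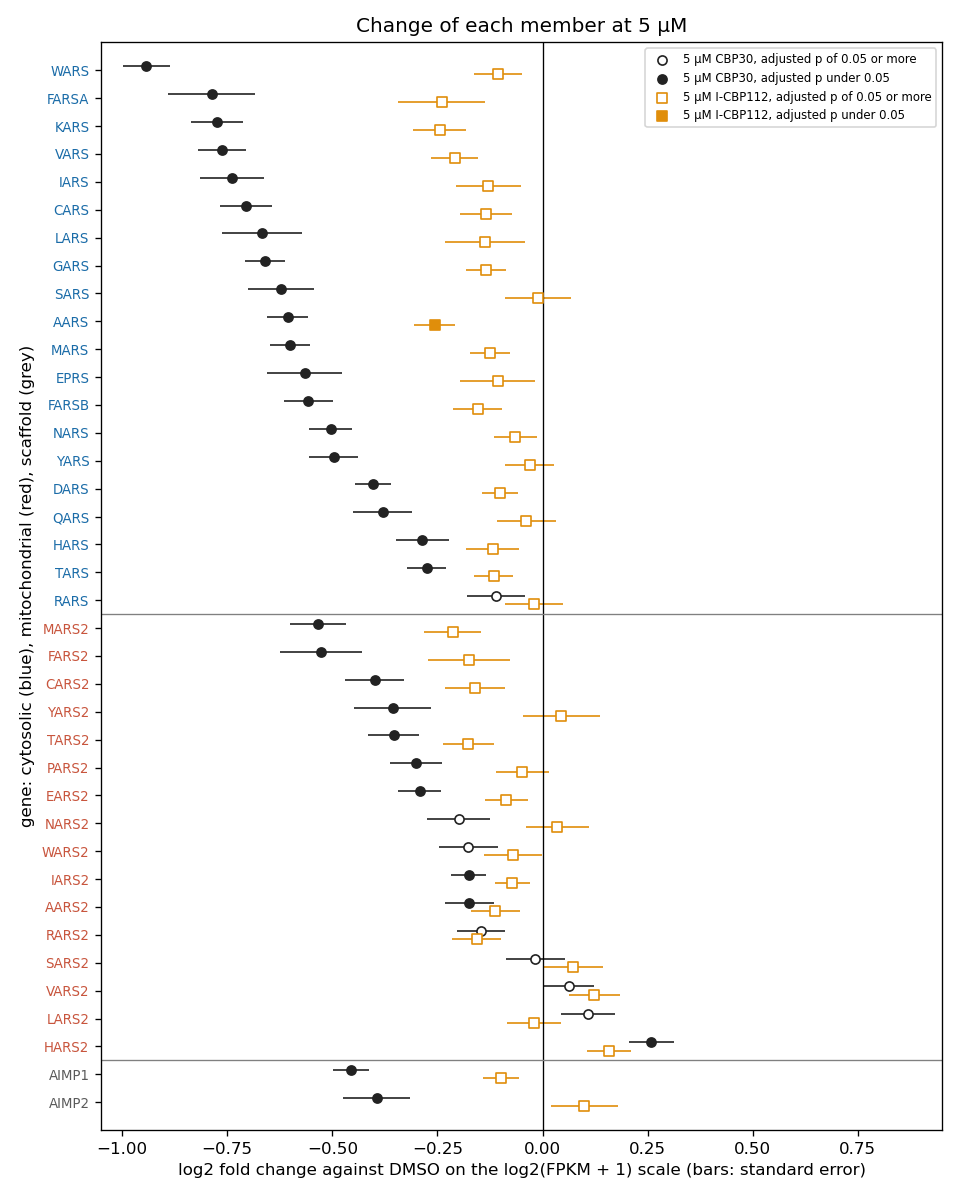
The log2 fold change against DMSO of each member is plotted with its standard error for CBP30 (black) and I-CBP112 (orange), both at 5 µM, with filled symbols where the adjusted p was under 0.05. Under 5 µM CBP30 the cytosolic median was −0.60 and the mitochondrial median −0.19, and under 5 µM I-CBP112 1 gene, AARS, was called, at −0.26.

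HARS and HARS2, the cytosolic and mitochondrial histidyl enzymes, moved in opposite directions. HARS measured 58.3 and 53.1 FPKM with DMSO, 50.5 and 49.3 with 2 µM CBP30 and 46.0 and 45.0 with 5 µM. It was called lower at 5 µM (−0.29, SE 0.0628, adjusted p = 0.00839) and not at 2 µM (−0.16, adjusted p = 0.099), although no treated sample overlapped with DMSO. HARS2 measured 17.7 and 18.4 with DMSO, 25.0 and 23.0 with 2 µM CBP30 and 21.7 and 21.9 with 5 µM. Its rise was 0.39 at 2 µM (SE 0.053, adjusted p = 0.00227) and 0.26 at 5 µM (adjusted p = 0.00629), and the step between the concentrations did not pass the test (−0.13, adjusted p = 0.0881). The ratio of HARS to HARS2 mRNA went from 3.09 with DMSO to 2.09 with 5 µM CBP30.

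These genes lie head to head on chromosome 5, HARS on the minus strand (chr5:140052620-140071122, hg19) and HARS2 on the plus strand (chr5:140071015-140078890). The starts used for their promoter windows are 85 bases apart, and the windows share 184 bases (chr5:140070906-140071089), shown here on the strand of HARS2 because both genes start within them. Capitals mark the bases from the start of HARS to the start of HARS2, each start included.
HARS and HARS2: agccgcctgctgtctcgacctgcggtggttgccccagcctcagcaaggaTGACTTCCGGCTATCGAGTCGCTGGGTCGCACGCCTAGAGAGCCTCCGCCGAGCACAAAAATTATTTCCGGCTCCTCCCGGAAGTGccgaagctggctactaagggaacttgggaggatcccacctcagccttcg
No 50-base stretch of their annotated transcripts is shared between HARS and HARS2. Their first exons overlap on opposite strands in the annotation, and an exon of HARS2 also overlaps one of ZMAT2 on the same strand, so reads of these stretches cannot be assigned with certainty.

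At 2 µM CBP30 the cytosolic set was partly lowered. Of 20 genes, 12 were downregulated and none was upregulated (median −0.24), while 16.3% of all tested genes were lower and 15.9% higher. At an unadjusted p under 0.05, 15 were lower and none was higher. For counts at an unadjusted p, here and below, no share of all genes was taken, so they have no background beside them. In the mitochondrial set 5 genes were lower (CARS2, EARS2, MARS2, PARS2 and TARS2) and 2 were higher (HARS2 and VARS2), with a median of −0.11. These calls used the spread of all 5 conditions: in a fit of the 2 µM CBP30 and DMSO samples alone, none of the 36 synthetases was called, and 1.28% of all tested genes were lower and 1.12% higher. When either of the DMSO samples was left out, fewer genes of both compartments were called lower, with no share of all genes to set beside this. The mitochondrial count of 5 was 2 or 3 when any 1 sample of 5 µM CBP30 or I-CBP112 was left out. It was also 2 with median centring, where 14.7% of all genes were lower, and 3 without the filter, without the variance trend or with quantile normalization.

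The members differed in which concentration lowered them. AARS, the alanyl enzyme, measured 209 and 211 FPKM with DMSO, 158 and 156 with 2 µM and 139 and 136 with 5 µM CBP30, with log2 fold changes of −0.41 and −0.61, and with the length trend removed these were −0.33 and −0.69. VARS (−0.48 and −0.76), DARS (−0.28 and −0.40), FARSB (−0.37 and −0.56), EPRS (−0.36 and −0.57) and KARS (−0.40 and −0.78) were likewise called lower at both concentrations, both in the fit used throughout and with the length trend removed. The share of the fall present at 2 µM depended on that trend, as for FARSB, at −0.26 and −0.66 without it. SARS, the seryl enzyme, was instead at 308 and 309 with DMSO, at 337 and 288 with 2 µM and at 202 and 198 with 5 µM, and its log2 fold changes were 0.01 and −0.62. YARS, the tyrosyl enzyme, likewise had −0.01 and −0.50, CARS −0.14 and −0.70, and QARS −0.02 and −0.38. These 4 genes were not called at 2 µM. For SARS (−0.64, adjusted p = 0.0027), YARS (−0.49, adjusted p = 0.00252), CARS (−0.56, adjusted p = 0.0019) and QARS (−0.36, adjusted p = 0.0101), the difference between 5 and 2 µM passed the test itself, and it also did with the length trend removed. These genes, other than those the fixed rule covers, were chosen after their values were seen.

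Between 5 and 2 µM CBP30, 23 of 38 members were lower and 1 was higher, with 21.3% of all genes lower and 17.6% higher. In a fit of only these samples no member was called, and with quantile normalization 13 were lower. No share of all genes is given for these fits. By compartment, 16 of 20 cytosolic genes were lower, and 5 mitochondrial genes were lower (FARS2, IARS2, VARS2, WARS2 and YARS2). Fewer members were called lower when either replicate of 5 µM CBP30 was left out, with no share of all genes to set beside this. Some mitochondrial genes did not follow the concentration. VARS2, the valyl enzyme, measured 22.9 and 22.0 FPKM with DMSO, 30.7 and 29.7 with 2 µM (0.41, adjusted p = 0.00307) and 24.9 and 22.2 with 5 µM, and the step down from 2 to 5 µM passed the test (−0.35, adjusted p = 0.00775). LARS2, the leucyl enzyme, was at 14.6 and 14.0 with DMSO, 12.0 and 13.3 with 2 µM and 15.0 and 15.9 with 5 µM, and was the member that was higher at 5 than at 2 µM (0.27, adjusted p = 0.0185). LARS2 has the longest annotated transcript of the members (10049 bases), which need not be the one expressed here. With the trend with this length removed, the difference of LARS2 was −0.07 and was not called (limma, adjusted p = 0.51). EARS2, the glutamyl enzyme, was at 17.5 and 16.8 with DMSO. It was at 12.8 and 13.3 with 2 µM and 13.6 and 14.0 with 5 µM, a fall that was not larger at the higher concentration. With the length trend removed, its log2 fold changes were −0.31 at 2 µM and −0.35 at 5 µM.

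**Figure D3:**
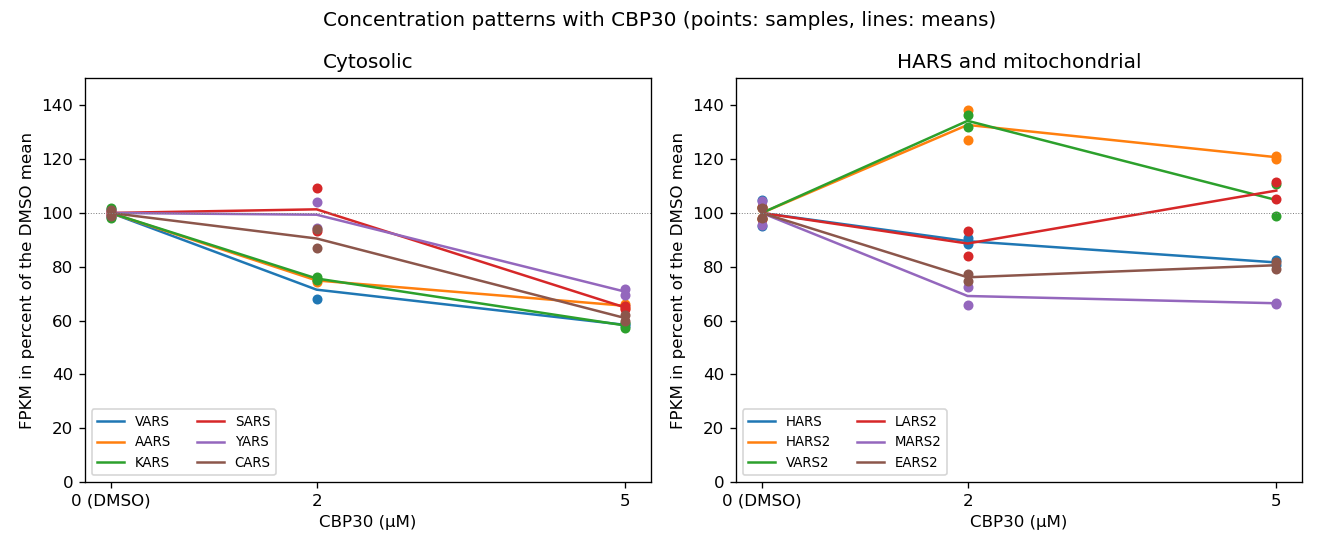
FPKM in percent of the DMSO mean is plotted against the concentration of CBP30 for 6 cytosolic genes (left) and for HARS and 5 mitochondrial genes (right), with points for samples and lines through means. VARS, AARS and KARS were lower at 2 µM, SARS and YARS were near the DMSO level there, and HARS2 and VARS2 were above it.

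A difference between the replicates of 2 µM CBP30 bears on these values. The members' values in replicate 1 minus those in replicate 2 fell with the length of the longest annotated transcript (Spearman's rho = −0.634 over 38 genes of the same libraries, given as a description). Over 12139 genes with a known length rho was −0.567. In the other conditions, rho over the members was between −0.0581 and 0.19, while over all genes it reached 0.271 with 2 µM I-CBP112 and −0.148 with DMSO. The median absolute replicate difference of the members was 0.102 on the log2 scale with 2 µM CBP30 and at most 0.0468 in the other conditions. The median length of the longest annotated transcript was 3428 bases for cytosolic and 3523 for mitochondrial synthetases. With the length trend removed, 12 cytosolic genes were called lower at 2 µM, of which 10 were shared with the 12 called above: GARS and LARS lost the call, and FARSA and TARS gained it. Between the 2 µM replicates LARS differed by −0.31 (log2) and GARS by 0.03, although the longest annotated transcript of GARS has 8433 bases. The removal goes by that annotated length, and which transcripts the cells express was not tested, so a lost call need not be an artefact removed. At 5 µM, 19 cytosolic genes were called in both fits, and all 19 were shared.

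**Figure D4:**
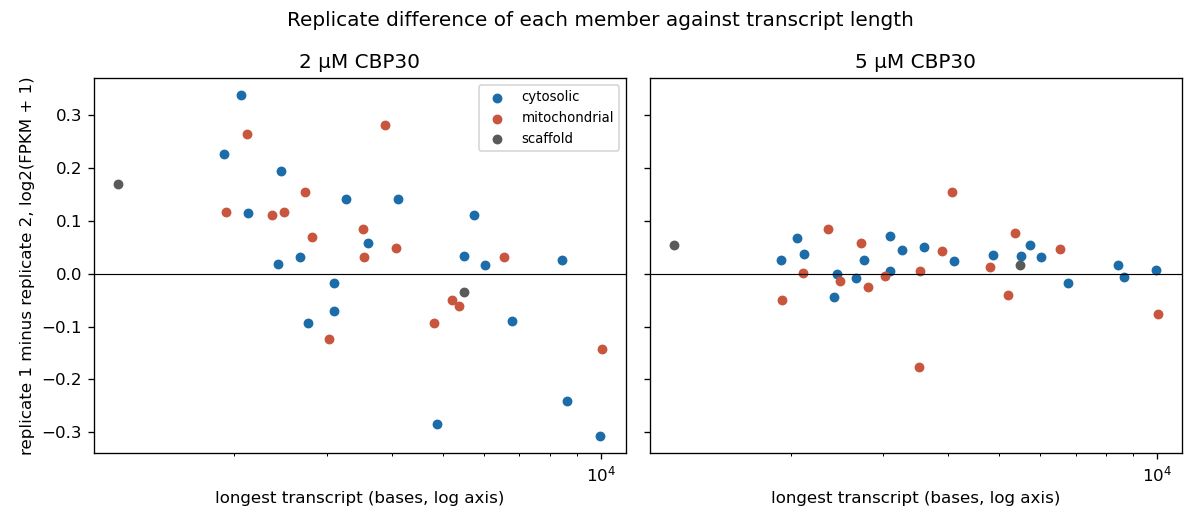
The difference of replicate 1 minus replicate 2 in log2(FPKM + 1) is plotted against the longest annotated transcript of each member (log axis) for 2 µM (left) and 5 µM (right) CBP30, colored by compartment. At 2 µM it declined with length (rho = −0.634), and at 5 µM rho was −0.0581.

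I-CBP112 changed few members. At 5 µM, 1 cytosolic gene, AARS, was lower and none was higher, while 3.28% of all tested genes were lower and 3.84% higher. AARS measured 175 and 177 FPKM, against 209 and 211 with DMSO (−0.26, SE 0.0486, adjusted p = 0.0253). This call held under 11 of 20 alternatives and was lost with the replicate number as a block (adjusted p = 0.0503), and no cytosolic gene was called when any 1 of the samples of DMSO, 5 µM CBP30 or 5 µM I-CBP112 was left out. All 20 cytosolic log2 fold changes were below 0, with a median of −0.12, beside 0.00 over all genes. At an unadjusted p under 0.05, 8 cytosolic genes were lower, with no share of all genes to set beside this count. In a fit of the 5 µM I-CBP112 and DMSO samples alone 6 were called, while 6.69% of all genes were lower and 6.3% higher. KARS (141 and 135 FPKM, −0.24, adjusted p = 0.0635) and VARS (67.3 and 65.4, −0.21, adjusted p = 0.0745) came closest to a call among the other cytosolic members.

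No mitochondrial gene was called at 5 µM I-CBP112 by limma, where 3 were lower and 1 was higher at an unadjusted p under 0.05, and the median was −0.07. HARS2 was at 20.3 and 20.2 FPKM, above both DMSO samples (0.16, 95% interval 0.03 to 0.28, adjusted p = 0.134). MARS2 was at 10.6 and 9.97, below both (−0.21, 95% interval −0.37 to −0.06, adjusted p = 0.112). At 2 µM I-CBP112 no member was called by limma, while 0.735% of all genes were lower and 0.868% higher. At an unadjusted p under 0.05, 4 members were lower and none was higher. The medians were −0.06 for cytosolic and −0.05 for mitochondrial genes. Between 5 and 2 µM I-CBP112 no member was called by limma either, and 0.00782% of all genes were lower and 0.0547% higher. At an unadjusted p under 0.05, 2 members were lower and none was higher.

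The compounds were compared directly at matched concentration and time. At 5 µM, 26 of 38 members were lower with CBP30 than with I-CBP112 and none was higher. Over all genes, 17.9% were lower and 13.6% higher. At an unadjusted p under 0.05, 30 members were lower and none was higher. The 26 were 18 cytosolic genes, 6 mitochondrial genes (CARS2, EARS2, FARS2, MARS2, PARS2 and YARS2) and both scaffold genes. WARS again had the largest difference (207 and 197 FPKM with CBP30, 368 and 353 with I-CBP112, −0.84, 95% interval −0.97 to −0.70). IARS (−0.61), SARS (−0.61), CARS (−0.57) and VARS (−0.55) followed. Without replicate 2 of 5 µM CBP30 17 members were lower, and without replicate 1 of 5 µM I-CBP112 16 were.

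Differences were not called at 5 µM for HARS (−0.17, 95% interval −0.31 to −0.02) and RARS (−0.09, 95% interval −0.25 to 0.07) among cytosolic members. Of the mitochondrial members, HARS2 differed by 0.10 (95% interval −0.02 to 0.23), RARS2 by 0.01 (−0.13 to 0.15), VARS2 by −0.06 (−0.20 to 0.08) and LARS2 by 0.13 (−0.02 to 0.28). At 2 µM, 9 members were lower with CBP30 than with I-CBP112 (AARS, DARS, FARSB, KARS, NARS, VARS, WARS, EARS2 and MARS2) and 2 were higher (HARS2, 0.32, and VARS2, 0.30), while 8.45% of all genes were lower and 7.13% higher. This count ranged from 0, without replicate 2 of 2 µM I-CBP112, to 15, without replicate 2 of 2 µM CBP30. Direct comparison at 2 µM gave −0.02 for TARS (95% interval −0.13 to 0.09), 0.00 for QARS (−0.16 to 0.17) and 0.04 for SARS (−0.15 to 0.22).

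GARS and KARS, which encode the enzyme of both compartments, were counted as cytosolic only, in the sums as in the medians. With DMSO they were at 336 and 163 FPKM, and sums with them on the mitochondrial side were not taken. Summed over each compartment, cytosolic synthetase mRNA was 3433 and 3487 FPKM with DMSO, 2991 and 2956 with 2 µM CBP30, and 2294 and 2256 with 5 µM CBP30. The same sum was 3244 and 3370 with 2 µM I-CBP112, and 3213 and 3172 with 5 µM I-CBP112. The mean with 5 µM CBP30 was 65.8% of that with DMSO, and the mean with 5 µM I-CBP112 was 92.3%. The mitochondrial sum was 368 and 370 with DMSO, 368 and 353 with 2 µM CBP30, and 326 and 323 with 5 µM CBP30. For I-CBP112 it was 350 and 356 at 2 µM and 359 and 352 at 5 µM. It was at 88.0% of DMSO with 5 µM CBP30. The samples of 5 µM CBP30 were the lowest of the 10 in both sums.

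Relative to the cytosolic sum, the mitochondrial sum was 10.7% ± 0.0626 with DMSO (SD, n = 2), 12.1% ± 0.247 with 2 µM CBP30 and 14.3% ± 0.0817 with 5 µM CBP30. With I-CBP112 it was 10.7% ± 0.166 at 2 µM and 11.1% ± 0.0539 at 5 µM. The 2 µM and 5 µM CBP30 samples were all above the other samples, and 2 samples against 2 cannot pass an exact permutation test. Without IARS2 the share was 7.78% and 7.67% in the DMSO samples and 10.3% and 10.4% in those of 5 µM CBP30. The mitochondrial median log2 fold change exceeded the cytosolic one by 0.42 with 5 µM CBP30 (SD 0.0093), by 0.13 with 2 µM CBP30 (SD 0.0334), by 0.05 with 5 µM I-CBP112 (SD 0.0037) and by 0.01 with 2 µM I-CBP112 (SD 0.0298). For 2 µM I-CBP112 this difference was smaller than its SD. These SDs cover the 2 treated samples against the DMSO mean. With 1 DMSO sample left out, the difference for 5 µM CBP30 was 0.35 or 0.44 (log2), and with quantile normalization that for 2 µM CBP30 was 0.23.

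**Figure D5:**
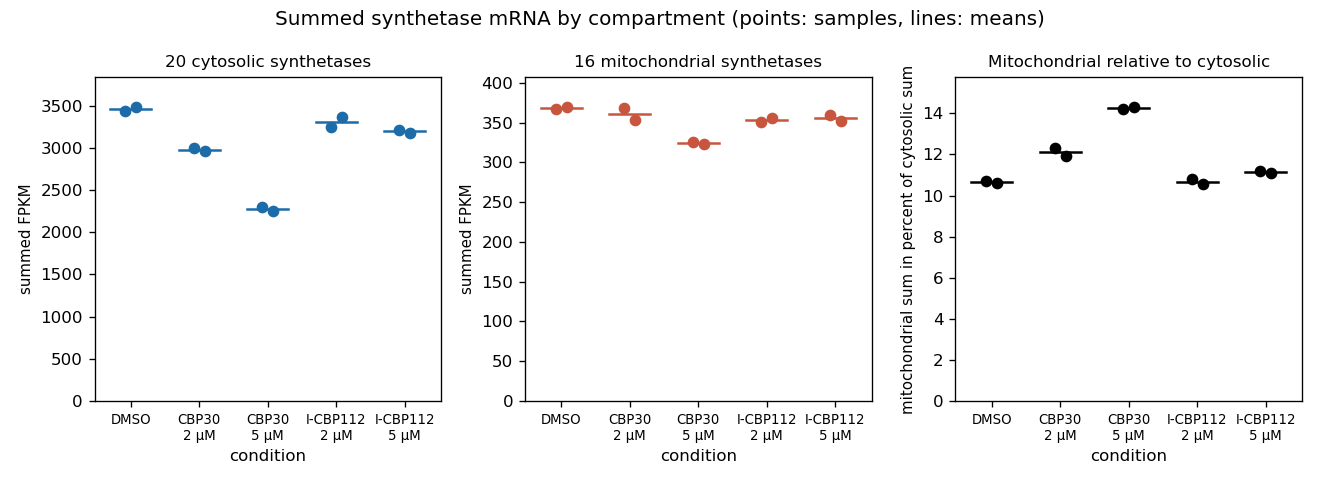
Summed FPKM of the 20 cytosolic (left) and 16 mitochondrial (middle) synthetases and the mitochondrial sum in percent of the cytosolic sum (right) are plotted for each condition, with points for samples and lines for means. With 5 µM CBP30 the cytosolic mean was 65.8% and the mitochondrial mean 88.0% of DMSO.

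Within pairs for the same amino acid, the cytosolic gene had the more negative log2 fold change with 5 µM CBP30 in 15 of 17. The exceptions were RARS with RARS2 (−0.11 and −0.15) and TARS with TARS2 (−0.28 and −0.35). The widest gaps were those of VARS and VARS2 (−0.76 and 0.06), LARS and LARS2 (−0.67 and 0.11), and WARS and WARS2 (−0.94 and −0.18). For methionine (MARS and MARS2, −0.60 and −0.53) and for FARSB and FARS2 (−0.56 and −0.53) they were close. The ratio of VARS to VARS2 went from 3.42 to 1.91, and that of WARS to WARS2 from 38.3 to 22.8. Differences within pairs were not tested, and the 17 are not separate comparisons, since EPRS and FARS2 recur among them.

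The scaffold genes were lowered by 5 µM CBP30. AIMP1 measured 41.6 and 41.3 FPKM with DMSO, 34.4 and 35.2 with 2 µM and 30.1 and 29.8 with 5 µM CBP30, and was called lower at both concentrations (−0.24, adjusted p = 0.00592, and −0.46, adjusted p = 0.000197). AIMP2 measured 25.3 and 26.8 with DMSO, 28.8 and 25.5 with 2 µM and 20.0 and 19.2 with 5 µM, and was called at 5 µM (−0.39, adjusted p = 0.00592) and not at 2 µM (0.06, adjusted p = 0.609). With 5 µM I-CBP112 AIMP1 was at 39.4 and 37.9 (−0.10) and AIMP2 at 27.2 and 28.7 (0.10), and neither was called. By the longest annotated transcript of each gene, AIMP2 is the shortest of the members (1198 bases).

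The cytosolic members were also grouped by complex, catalytic class and ATF4 listing, at 5 µM CBP30 and with no test between groups. At that concentration 25.4% of all tested genes were lower. Of the 8 enzymes of the complex 7 were lower (median −0.58), and of the 12 outside it 12 were (median −0.61). Class I and class II enzymes differ in the fold of their catalytic domain. Of 9 cytosolic class I enzymes 8 were lower (median −0.67), and of 10 of class II 10 were (median −0.58), with EPRS, which holds a domain of each class, in neither. Of 12 genes usually listed as ATF4 targets all 12 were lower (median −0.61), and of the 8 others 7 were (median −0.48). The 7 cytosolic genes with TGATGNAA in a window were among these 12, and their log2 fold changes ran from −0.74 to −0.28. At 2 µM, where 16.3% of all genes were lower, 8 of the 12 listed genes and 4 of the 8 others were. Their medians were −0.22 and −0.27.

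Other genes of tRNA charging were measured beside the synthetases. Of 19 listed genes, 13 were lower and 2 were higher with 5 µM CBP30 (median −0.44), 6 were lower and 1 was higher with 2 µM, and 1, NSUN2, was lower with 5 µM I-CBP112. Over all genes, the shares lower and higher were 25.4% and 21.2% with 5 µM CBP30, 16.3% and 15.9% with 2 µM CBP30, and 3.28% and 3.84% with 5 µM I-CBP112. EEF1E1, the further auxiliary protein of the multisynthetase complex, fell from 147 ± 0.394 to 71.9 ± 0.377 FPKM with 5 µM CBP30 (SD, n = 2 each), a log2 fold change of −1.03 (limma, adjusted p = 0.000117) and larger than that of any synthetase. AARSD1, a protein that edits mischarged alanyl-tRNA, fell by 0.84 (adjusted p = 0.00031). Those that rose were MTFMT, which formylates the mitochondrial initiator tRNA (0.29, adjusted p = 0.00499), and TARSL2, a relative of the threonyl enzyme that was low throughout (0.25, adjusted p = 0.0294).

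Among 14 genes of the ATF4 response, 12 were lower and none was higher with 5 µM CBP30, beside 25.4% and 21.2% of all genes. ATF5 (−1.80) and TRIB3 (−1.57) led, and the median was −0.56. At an unadjusted p under 0.05, 14 were lower and none was higher. At 2 µM CBP30, 1 was lower (SLC7A11) and 2 were higher (PHGDH and SHMT2), with a median of −0.01. These counts lay below or near the shares of all genes at 2 µM (16.3% lower and 15.9% higher), and the replicates of PHGDH were further apart than those of DMSO (280 ± 51.1 FPKM, SD, n = 2, against 216 ± 0.443).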

How the data were processed

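Per the labels, polyadenylated RNA of K562 cells was made into stranded libraries and read as single reads of 50 bases, and the submitters' processing notes name TopHat2 2.0.10, Bowtie 1.0.0, SAMtools 0.1.19, Cufflinks 2.2.1 and Cuffnorm with GRCh37/hg19. The authors deposited FPKM values per gene and sample, without pooling replicates, and the gene annotation is not given in the sources used here. FPKM is relative to library size, so a change in abundant genes can shift the others, to an extent that depends on how library size was scaled. The FPKM sum ranged from 547504 to 689095 per sample and the median of tested genes from 11.1 to 11.6. The highest sum and the lowest median were both those of replicate 1 of 2 µM CBP30.

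Tests used limma 3.58.1 (R 4.3.3) on FPKM plus 1 in log2 (lmFit, eBayes with trend, all 10 samples in 1 fit, 5 residual degrees of freedom and 2.15 prior ones). The fit was tested on simulated data. Figures were made with matplotlib 3.10.9 in Python 3.11.15. The table uses older symbols for 18 members (AARS for AARS1). Gene positions and the length of the longest annotated transcript of each gene came from GENCODE (hg19), and lengths matched 92.0% of the table.

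The members, lists and tests were chosen with earlier results of these data known. Values per sample are given for the 5 called members with the largest log2 fold change per compartment with 5 µM CBP30, up to 2 per compartment called with 5 µM I-CBP112 (only AARS was), the highest and lowest members with DMSO, HARS, HARS2, AIMP1 and AIMP2. Other members described by sample, and the examples from pairs and concentrations, were chosen after their values were seen. From the other lists, the 2 called genes with the largest log2 fold change in each direction are named, along with single genes where a count was small. Each sample was left out in turn, and 10 other settings were tried: a filter at 5 FPKM, none at all, a pseudocount of 0.1, median centring, quantile normalization, no variance trend, only the groups compared, the replicate block, removal of the length trend, and that with the block. No protein sequence and no window for AARS2, DARS, LARS, VARS, VARS2 and YARS was used here.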

Additional observations from a re-analysis of the deposited data

How the results depend on the processing

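With 5 µM CBP30 the counts for both compartments stayed within 1.5 times under every alternative other than leaving out replicate 2 of 5 µM CBP30 (5 mitochondrial genes lower). The 27 called fold changes against DMSO of the members picked by the fixed rule had 540 alternative values. Of these, 487 kept direction and side of the threshold, 53 lost the call and 0 turned direction. Some other values named above did turn with the length trend removed. Examples are LARS2 between the CBP30 concentrations (to −0.07) and SARS, which had no call, at 2 µM CBP30 (to −0.10). With 2 samples per condition, the spread rests on the 5 groups together. Many counts from other settings, here and above, are given without the share of all genes in the same fit. For those, a loss of calls particular to the members cannot be told from one over all genes. Causes of the changes below were not tested.

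The fit of only the groups compared gave 0 cytosolic genes lower at 2 µM CBP30, 0 mitochondrial lower and 0 higher, 6 cytosolic and 1 mitochondrial lower at 5 µM I-CBP112, 0 members lower and 0 higher between the CBP30 concentrations, 1 member higher between compounds at 5 µM, and 0 lower and 0 higher between them at 2 µM. In that fit 6.69% of all genes were lower at 5 µM I-CBP112. Mitochondrial genes lower at 2 µM CBP30 numbered 3 without a filter, 2 with median centring, 3 with quantile normalization and 3 without the trend. Quantile normalization gave 13 members lower between the CBP30 concentrations. It gave differences of the compartments' medians of 0.2345 (2 µM CBP30), 0.3143 (5 µM CBP30) and 0.0641 (5 µM I-CBP112). Removing the length trend gave 0.0946, 0.4014 and 0.0431, with or without the replicate block. It also gave 3 cytosolic genes lower (2 with the replicate block), 1 mitochondrial gene lower (1 with the block) and 1 mitochondrial higher at 5 µM I-CBP112, 0 members higher between the CBP30 concentrations (0 with the block) and 1 member higher with CBP30 than I-CBP112 at 5 µM (1 with the block).

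Replicate numbers did not pair the samples: correlations of the deviations over 10 pairs of conditions ran from −0.0681 to 0.0939, with 0 over 0.1. With the replicate block, 0 cytosolic genes were lower at 5 µM I-CBP112, and the other counts, such as 12 and 19 cytosolic genes lower at 2 and 5 µM CBP30, stayed within 1.5 times.

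Leaving out 1 sample at a time, the lone sample left being assumed to vary like the other groups, cytosolic genes lower at 2 µM CBP30 ranged from 6 to 15 (6 with either DMSO sample left out) and higher from 0 to 1 (1 without replicate 2 of 2 µM CBP30). Mitochondrial genes lower at 2 µM CBP30 ranged from 2 to 5, with 2 when any 1 sample of DMSO, 2 µM I-CBP112 or 5 µM I-CBP112 was left out and 3 when either of 5 µM CBP30 was. At 5 µM CBP30, mitochondrial genes lower ranged from 5 to 10. With I-CBP112, mitochondrial genes lower ranged from 0 to 1 at 2 µM and from 0 to 2 at 5 µM, mitochondrial higher at 5 µM from 0 to 1 and cytosolic lower at 5 µM from 0 to 9, the highest values each without a 2 µM CBP30 sample. Members lower between the CBP30 concentrations ranged from 7 to 26 and higher from 0 to 1, the lowest values without a 5 µM CBP30 sample. Between compounds at 5 µM, lower ranged from 16 (without replicate 1 of 5 µM I-CBP112) to 29 and higher from 0 to 2 (2 with either 2 µM CBP30 sample left out). At 2 µM, lower ranged from 0 to 15 (4 and 5 without replicate 1 and 2 of DMSO, 14 and 15 without those of 2 µM CBP30, 4 without any 1 of 5 µM CBP30 or 5 µM I-CBP112, 2 and 0 without those of 2 µM I-CBP112), and higher from 0 to 5 (5 without replicate 2 of 2 µM CBP30, 0 without any 1 of 2 µM I-CBP112, 1 without any 1 of 5 µM I-CBP112). The differences of the medians ranged from 0.0959 to 0.1431 and from 0.3456 to 0.4350 with 2 and 5 µM CBP30, and from 0.0041 to 0.0481 and from 0.05 to 0.0629 with 2 and 5 µM I-CBP112; the value of 0.0481 was without replicate 2 of 2 µM I-CBP112.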
